A study of Mus musculus with 2 samples.

Results

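The 10 genes for secreted or membrane-bound signals read in B cells sorted from the mouse heart were Ltb, Lta, Tnf, Tgfb1, Il10, Il6, Ebi3, Vegfa, Vegfb and Ccl22, out of the 31053 genes in the count tables. They were read in droplets with at least 2000 unique molecular identifiers (UMIs, each standing for 1 captured RNA molecule), at most 10% mitochondrial UMIs and at least 1 UMI of Cd79a, which encodes a chain of the B cell receptor complex. These limits left 2077 neonatal and 3611 adult cells. The genes were chosen by name as cytokines of B cells, with earlier results of these data known.

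The study sequenced 2 droplet libraries, from C57BL6/J mice at 2 weeks (neonatal, males and females together) and at 8 weeks (adult, males). Each library held live CD45+ B cells sorted from the pooled, digested hearts of 6 animals. Both ages were wild type and untreated, and both were digested and sorted on the same day. In the libraries as a whole, age, library and the presence of females cannot be told apart with 1 pooled library per age. No test between ages was therefore made, and the exact 95% intervals given here cover counting error only.

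B cells are known for antibody secretion, but they also make cytokines that shape the tissue around them. Lymphotoxin β (Ltb), lymphotoxin α (Lta) and tumor necrosis factor (Tnf) form a family of ligands that organise lymphoid tissue and drive inflammation. TGF-β1 (Tgfb1), IL-10 (Il10) and EBI3 (Ebi3), a chain shared by IL-27 and IL-35, are known as restraining signals, and regulatory B cells are often defined by IL-10. IL-6 (Il6) is an inflammatory cytokine, VEGF-A (Vegfa) and VEGF-B (Vegfb) act on blood vessels, and CCL22 (Ccl22) attracts T cells that carry CCR4.

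The 3 lymphotoxin and TNF genes lie side by side on chromosome 17 of the GRCm38 build. Ltb, on the plus strand, spans chr17:35194439-35196320, Tnf, on the minus strand, chr17:35199381-35202007, and Lta, also on the minus strand, chr17:35203165-35205351. From Ltb to Tnf there are 3060 bases and from Tnf to Lta 1157 bases, so the 3 genes fit in 10913 bases. Their promoter sequences, from RefSeq on GRCm38.p6, are shown because these neighbours had very different levels and age ratios in the cells described below. Each run ends at the base before the nearest annotated transcript start, and is read 5′ to 3′ on the gene's strand. Capitals mark a match to GGGNNTTTCC, the letters of a κB site, on either strand. The motif was chosen after the sequences had been seen.
Ltb, chr17:35194257-35194438, plus strand: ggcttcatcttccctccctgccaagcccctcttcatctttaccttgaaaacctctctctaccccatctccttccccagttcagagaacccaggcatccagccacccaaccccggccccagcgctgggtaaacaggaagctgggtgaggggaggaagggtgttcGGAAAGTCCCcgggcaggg
Tnf, chr17:35202008-35202257, minus strand: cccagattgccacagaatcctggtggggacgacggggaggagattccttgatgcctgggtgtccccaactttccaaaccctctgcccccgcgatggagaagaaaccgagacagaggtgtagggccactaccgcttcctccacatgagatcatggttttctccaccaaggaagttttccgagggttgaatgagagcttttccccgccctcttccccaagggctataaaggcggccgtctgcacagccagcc
Lta, chr17:35205352-35205601, minus strand: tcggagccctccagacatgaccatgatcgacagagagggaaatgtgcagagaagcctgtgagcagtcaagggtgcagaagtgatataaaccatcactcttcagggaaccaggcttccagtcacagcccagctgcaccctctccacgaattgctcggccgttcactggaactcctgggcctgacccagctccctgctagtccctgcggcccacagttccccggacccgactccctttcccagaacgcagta
The only match in these 3 runs was GGAAAGTCCC before Ltb, 87 bases before the RefSeq start. Of the 9 genes with a promoter window, Ltb and Il6 held a match in the window of 300 bases, as did 1.63% of 32851 such windows. A match is a description of letters, and the libraries hold no binding data.

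The other genes lie apart from this cluster. Ebi3 is at chr17:55952640-55957022 on the plus strand, where a gene on the opposite strand, Gm16712, overlaps it, and Vegfa is at chr17:46016993-46032369 on the minus strand. Tgfb1 is at chr7:25687002-25705077 and Il10 at chr1:131019845-131024974, both on the plus strand. Il6 is at chr5:30013114-30019981 and Ccl22 at chr8:94745590-94751699, both on the plus strand, and Vegfb is at chr19:6982473-6987651 on the minus strand.

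Transcripts of B cells were read with 6 listed genes, 1 of which, Cd79a, was required of every cell. They summed to 21008 neonatal and 22155 adult CPM (UMIs of a gene or list per 1000000 UMIs of the cells). The cells held 16403180 neonatal and 34623240 adult UMIs with medians of 6000 and 6131 UMIs per cell. UMIs of 8 macrophage genes stood at 86.8 CPM in the neonatal and 13.4 CPM in the adult cells. The 4 neutrophil genes stood at 25.1 CPM in the neonatal cells, while the adult cells held 0 UMIs of them. Genes induced by tissue handling, such as Fos and Jun, summed to 7620 CPM and 5774 CPM. Only 2 barcodes were cells in both libraries, but 110 barcodes had at least 500 UMIs in both, and 61 neonatal and 45 adult cells were among them. These 61 neonatal cells were deep, with a median of 30537 UMIs, against 656 UMIs under the same barcodes in the adult library. The 45 adult cells had a median of 58990 UMIs, against 612 UMIs in the neonatal library. The 61 neonatal cells held 27 of the 39 Il10 UMIs, all 12 Il6 UMIs and both Ccl22 UMIs of the neonatal library. Il10 is therefore also given without them, and Il6 and Ccl22 had no other neonatal UMI. Without the shared barcodes the log2 ratios of adult over neonatal given below were 2.16 for Lta and -1.17 for Vegfa.

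Near-empty droplets were used as the measure of free RNA. They were 45000 droplets per library, holding 55.9 UMIs on average at 2 weeks and 92.0 at 8 weeks. Their RNA had nearly the composition of the cells' RNA: the median gene had a CPM ratio of cells to near-empty droplets of 0.994 at 2 weeks and 1.03 at 8 weeks. By CPM, 0 of the 10 genes were 2-fold above near-empty droplets in either library, against 5.34% of all genes tested at 2 weeks and 5.12% at 8 weeks. Counted as UMIs per droplet, an alternative chosen after seeing the data, all 10 neonatal and 9 of the adult genes were above it, but so were 100% of all genes tested in both libraries, so this count says nothing particular about cytokines. The expected number of free UMIs in the cells bears on each level directly. It was 71.4 of 10012 Ltb UMIs in the neonatal cells, 4.49 of 626 Lta UMIs in the adult cells and 1.69 of 168 Il10 UMIs in the adult cells.

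**Figure D1:**
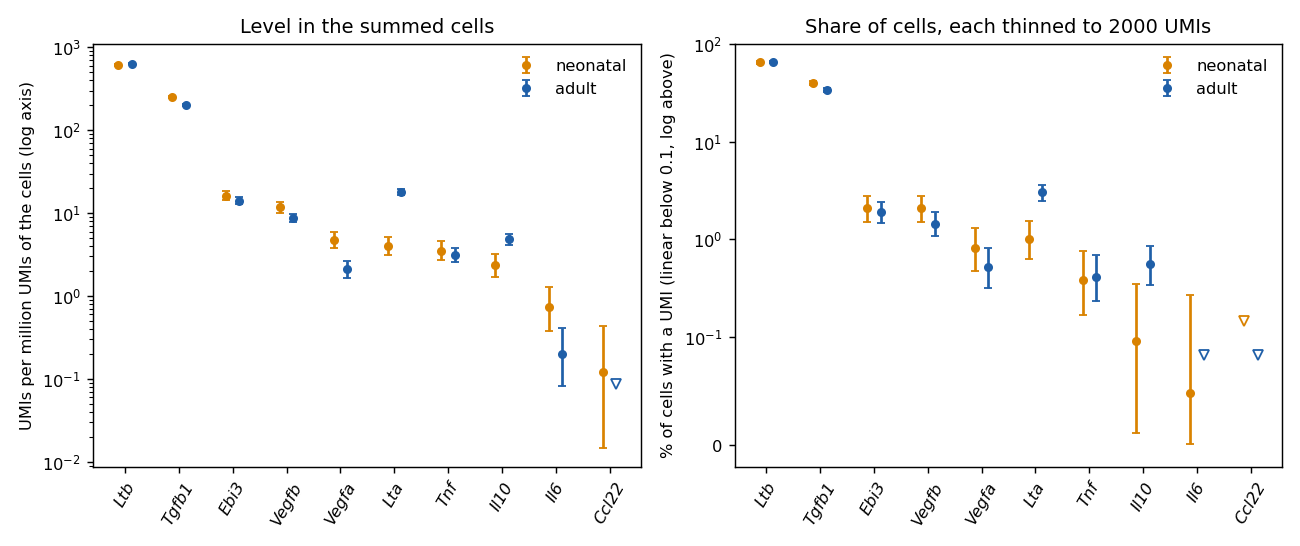
Level of each gene (left, CPM, log axis) and share of cells with a UMI after each cell was thinned to 2000 UMIs (right, percent) in the neonatal and adult library. Points are single libraries, bars are exact 95% intervals of counting error, and open triangles are the limit that a count of 0 allows. Ltb and Tgfb1 stand far above the other 8 genes, and Lta and Il10 have the widest gaps with the adult library on top.

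Ltb, the membrane-bound partner of lymphotoxin α, was the most abundant of the 10 genes. It stood at 610 CPM (598 to 622) in the neonatal and 633 CPM (625 to 641) in the adult cells, with 10012 and 21918 UMIs. A Ltb UMI was seen in 90.5% of neonatal and 90.7% of adult cells. After thinning each cell to 2000 UMIs the shares were 65.2% and 65.9%. Most Ltb-positive cells held only a few molecules at that depth, and cells with 5 or more were 3.23% and 3.07% of the libraries. The log2 ratio of adult over neonatal was 0.05 (0.02 to 0.09). UMIs were counted from the 3′ end of transcripts, so these levels are per molecule and not corrected for length.

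Tgfb1 was the next most abundant, at 250 CPM (243 to 258) in the neonatal and 200 CPM (195 to 205) in the adult cells. It was seen in 39.9% of neonatal and 33.7% of adult cells at 2000 UMIs, and in 76.0% and 70.2% as sequenced. Unlike Ltb it was lower in the adult library, with a log2 ratio of -0.32 (-0.38 to -0.27). By CPM the lower adult level was present whatever the cells held of Cr2 and Fcer2a, with ratios of adult over neonatal from 0.641 in cells with neither transcript to 0.916 in cells with Fcer2a only. Relative to the median ratio of all genes these were 0.703 and 1.004.

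Lta, which encodes the soluble lymphotoxin, showed the widest age ratio of the 8 genes deep enough to compare in the cells as chosen, although Il10 was wider without shared barcodes, in thinned cells and without the 1% of droplets with most UMIs. It stood at 4.02 CPM (3.11 to 5.12) in the neonatal and 18.1 CPM (16.7 to 19.6) in the adult cells, with 66 and 626 UMIs. This is a log2 ratio of 2.17 (1.80 to 2.56). At 2000 UMIs per cell 1.01% of neonatal and 3.02% of adult cells held a Lta UMI, and as sequenced 2.70% and 12.5%. No single cell carried the level, since the cell with most Lta UMIs held 4 of 66 neonatal and 17 of 626 adult UMIs. Counted in cells thinned to 2000 UMIs the log2 ratio was 1.67. In near-empty droplets Lta stood at 6.76 CPM in the neonatal and 13.5 CPM in the adult library. The ratios of cells to near-empty droplets were 0.595 (0.345 to 1.08) and 1.34 (1.02 to 1.79).

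Tnf, the third gene of the cluster and the direct neighbour of Lta, did not share this pattern. It stood at 3.54 CPM (2.69 to 4.57) in the neonatal and 3.12 CPM (2.56 to 3.77) in the adult cells, with 58 and 108 UMIs. Its log2 ratio of -0.18 had an interval from -0.65 to 0.31, so no difference was detectable at this depth. Only 0.385% of neonatal and 0.415% of adult cells held a Tnf UMI at 2000 UMIs, and 1.69% and 2.30% as sequenced. The neonatal cells with Tnf also carried macrophage transcripts, at 1616 CPM over the macrophage list against 32.8 CPM in the other cells, with macrophage UMIs in 25.7% of them. Without the 26 neonatal and 75 adult cells that held 2 or more macrophage, dendritic or neutrophil UMIs the log2 ratio of Tnf was 0.26, with an interval from -0.27 to 0.82.

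Il10 was rare and unevenly held. It stood at 2.38 CPM (1.69 to 3.25) in the neonatal and 4.85 CPM (4.15 to 5.64) in the adult cells, with 39 UMIs in 17 cells and 168 UMIs in 68 cells. A single droplet held 19 of the neonatal UMIs and another 45 of the adult UMIs, which is 48.7% and 26.8% of them. Both droplets carried all 5 listed plasma cell genes, and Igkc, Ighm and Jchain led their transcripts. They held 12 and 5 Cd79a UMIs, of which at least 1 was required of every cell. The next adult droplet held 19 Il10 UMIs and carried 7 of 8 listed B1 genes. The log2 ratio of adult over neonatal was 1.03 (0.52 to 1.57), which is just past 2-fold, and it moved with a few deep cells. It was 1.54 without the top cell of each library, 2.52 without barcodes found in both libraries and 0.23 in cells with a Y-linked and no Xist UMI. By Cr2 and Fcer2a, the ratio of adult over neonatal was 0.470 (0.232 to 0.9296) in cells with Fcer2a only, which held the top neonatal droplet, and 9.05 (5.09 to 17.3) in cells with neither, which held the top adult droplet. Without these 2 droplets the ratios were 2.68 (0.866 to 11.03) and 3.98 (2.09 to 8.01). At 2000 UMIs per cell 0.0963% of neonatal and 0.554% of adult cells held Il10, against 0.818% and 1.88% as sequenced.

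Il6 and Ccl22 were at the edge of detection. Il6 had 12 UMIs in the neonatal library, all in 1 droplet, and 7 UMIs in 6 cells in the adult. That neonatal droplet carried 4 of the listed macrophage genes and 4 of the listed dendritic cell genes. It had 8 Cd79a UMIs, of which at least 1 was required of every cell. Its barcode was 1 of those found in both libraries. Ccl22 had 2 UMIs in 1 neonatal cell and 0 UMIs in the adult, which allows a share of cells with a UMI of up to 0.0831% (3 of 3611 cells, the limit used here for a count of 0). No ratio between libraries was drawn for either gene.

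Ebi3 was the most abundant of the sparse genes in the neonatal library. It stood at 16.3 CPM (14.4 to 18.4) in the neonatal and 14.1 CPM (12.9 to 15.4) in the adult cells, and a UMI was seen in 2.07% and 1.88% of cells at 2000 UMIs, or 9.003% and 10.4% as sequenced. Its log2 ratio was -0.20 (-0.42 to 0.02). IL-35 joins EBI3 to the product of Il12a, which stood close to it, at 16.3 CPM and 14.7 CPM, whereas Il27, the partner in IL-27, had 0 UMIs in both libraries. Il12a was lower in neonatal cells with Ebi3 than in those without it, at 7.90 CPM against 18.1 CPM (ratio 0.437, 0.272 to 0.671). In the adult cells it was at 17.8 CPM against 13.9 CPM (ratio 1.28, 1.04 to 1.57), and the difference between these ratios was not tested.

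The VEGF genes were both lower in the adult library, with Vegfb the more abundant. Vegfb stood at 11.8 CPM (10.2 to 13.5) and 8.69 CPM (7.74 to 9.73), a log2 ratio of -0.44 (-0.70 to -0.17), and was seen in 2.07% and 1.44% of cells at 2000 UMIs and in 7.80% and 7.06% as sequenced. Vegfa stood at 4.76 CPM (3.76 to 5.93) and 2.11 CPM (1.65 to 2.65), a log2 ratio of -1.17 (-1.65 to -0.69). It was seen in 0.818% and 0.526% of cells at 2000 UMIs and in 3.13% and 1.63% as sequenced. The Vegfa ratio was smaller where every cell counted alike, at -0.49 on the log2 scale in thinned cells and -0.88 as a mean over cells. In near-empty droplets Vegfa stood above its level in the cells, at 8.75 CPM and 3.38 CPM. The ratios of cells to near-empty droplets were 0.544 (0.335 to 0.917) in the neonatal and 0.624 (0.349 to 1.20) in the adult library.

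Of the 8 genes with at least 50 UMIs over both libraries, 2 (Lta and Il10) were at least 2-fold higher in the adult library, against 3.25% of the 10703 genes measured as deeply. One gene, Vegfa, was at least 2-fold lower, against 3.96% of all genes. The 8 genes had a median log2 ratio of -0.19, and all genes one of -0.13. Cells with a Y-linked and no Xist UMI were 1279 neonatal and 2819 adult. Their log2 ratios were 2.02 for Lta, -1.09 for Vegfa and 0.23 for Il10. Without the 1% of droplets with most UMIs the same 3 genes passed 2-fold. Under a mitochondrial limit of 5%, which left only 60 neonatal and 156 adult cells, none of the genes still at 50 UMIs did. The log2 ratio of Lta was 0.33 there, with a wide interval (-0.80 to 1.61) that included both no difference and 2-fold. This interval was wider than that of Ebi3 (-1.89 to -0.12), a gene under 50 UMIs in that setting. The log2 ratio of Vegfa, under 50 UMIs there, was -2.25 (-4.88 to -0.02).

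**Figure D2:**
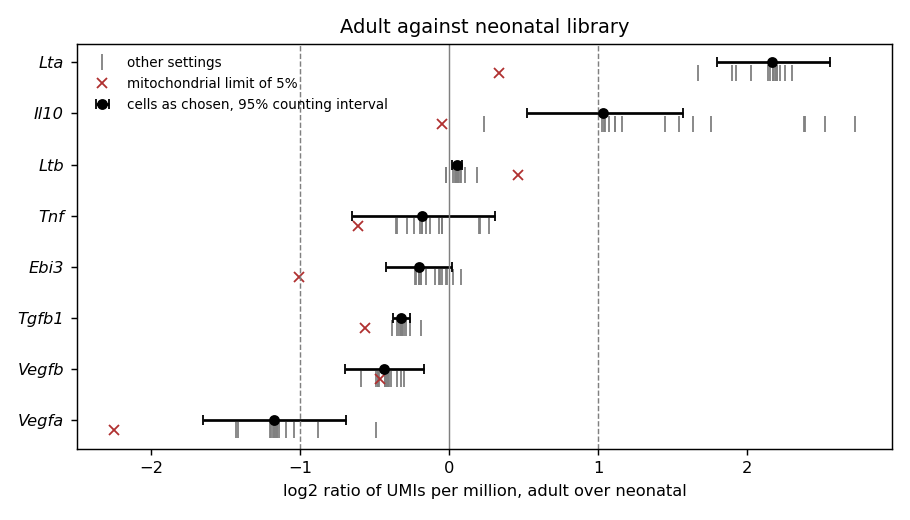
Log2 ratio of CPM, adult over neonatal library, for the 8 genes with at least 50 UMIs. Black points with bars are the cells as chosen with their 95% counting interval, grey ticks are the other settings, red crosses the mitochondrial limit of 5%, and dashed lines mark 2-fold. Lta lies to the right of 2-fold in every setting but the red cross, while the ticks of Il10 spread from 0.23 to 2.73.

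The UMIs of the sparse genes were spread over cells in different ways. Of the 451 adult cells with Lta, 338 held 1 UMI, 84 held 2 and 29 held 3 or more. Of the 375 adult cells with Ebi3, 292 held 1 UMI and 1 held 5. By contrast, 13 of the 68 adult cells with Il10 held 3 or more, and the neonatal Il6 count came from 1 cell alone.

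**Figure D3:**
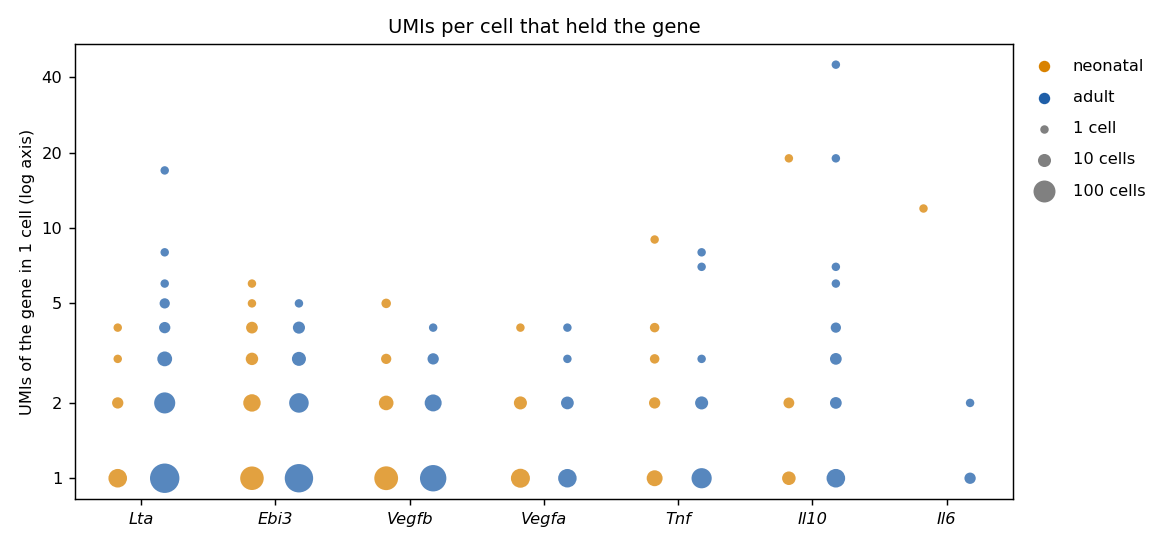
UMIs of each sparse gene in the single cells that held it (log axis), with the area of a point growing with the number of cells at that value, for the neonatal and adult library. Ebi3, Vegfb and Vegfa never exceed 6 UMIs in a cell, whereas Il10 reaches 19 and 45 UMIs and Il6 reaches 12.

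The transcripts Cr2, Fcer2a, Bhlhe41 and Vpreb3 were used to ask which B cells held the genes. Cr2 (CD21) is a surface receptor of mature follicular and marginal zone B cells, and Fcer2a (CD23) is one of mature follicular B cells. Bhlhe41 is a transcription factor of B1 cells, and Vpreb3 is known from immature and transitional B cells. Cr2 was seen in 343 neonatal and 1702 adult cells, Fcer2a in 925 and 2632, Bhlhe41 in 377 and 442, and Vpreb3 in 1484 and 2055. Cells with Cr2, Fcer2a or Bhlhe41 were deeper than cells without, most of all adult cells with Bhlhe41, at a median of 16228 UMIs against 5385, so levels and not shares of cells were compared.

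Among neonatal cells, 0 of 28 pairs of gene and transcript were at least 2-fold higher in the cells with the transcript, where 0.0865% of all genes were for Cr2, 0.389% for Fcer2a, 1.71% for Bhlhe41 and 1.12% for Vpreb3. In the other direction 2 pairs were at least 2-fold lower, both for Vpreb3, against 1.46%, 1.44%, 0.541% and 2.22% of all genes for the 4 transcripts in the same order. Among adult cells 1 of 32 pairs was at least 2-fold higher, Il10 with Bhlhe41, against 0.493%, 1.0%, 2.51% and 0.512% of all genes. A further 3 adult pairs were at least 2-fold lower, all of them Il10, against 0.384%, 1.87%, 1.14% and 0.985%.

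Il10 was the gene most unevenly divided among adult cells. It stood at 8.30 CPM in cells with Bhlhe41 and 3.57 CPM in those without (ratio 2.33, 1.70 to 3.19). It was lower with each of the other transcripts, with ratios of 0.440 for Cr2, 0.169 for Fcer2a and 0.169 for Vpreb3. Cells with neither Cr2 nor Fcer2a held it at 16.8 CPM, against 8.57 CPM with Cr2 only, 2.41 CPM with both and 1.99 CPM with Fcer2a only. The adult droplet with most Il10 UMIs was among the cells with neither. With that droplet left out, cells with neither held Il10 at 7.41 CPM, on 35 UMIs. This lay within the interval of cells with Cr2 only (5.65 to 12.5 CPM, 27 UMIs), from which no droplet was left out. Without the 6 neonatal and 15 adult cells that held 10 or more plasma cell UMIs the Bhlhe41 ratio was 4.85 and the Fcer2a ratio 0.272. The Cr2 ratio was then 0.797, with an interval that included 1. The neonatal library had too few Il10 UMIs for this reading, and 19 of its 25 Il10 UMIs in Fcer2a-positive cells came from the single top droplet.

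By CPM, Ebi3 was held more by cells with Bhlhe41 and less by cells with Vpreb3, in both libraries. With and without Bhlhe41 it stood at 21.8 CPM and 14.2 CPM in the neonatal cells (ratio 1.53, 1.18 to 1.98) and at 21.5 CPM and 11.4 CPM in the adult cells (ratio 1.89, 1.57 to 2.27). The neonatal difference was not seen in shares of cells thinned to 2000 UMIs. There 2.12% of neonatal cells with Bhlhe41 and 2.06% of those without held Ebi3, against 4.30% and 1.55% of adult cells. With Bhlhe41 read in 2000 UMIs and Ebi3 in the UMIs left over, the neonatal ratio was 1.56 (0.933 to 2.47). With and without Vpreb3, Ebi3 stood at 10.8 CPM and 28.6 CPM in the neonatal cells (ratio 0.376, 0.293 to 0.482) and at 10.6 CPM and 20.1 CPM in the adult cells (ratio 0.526, 0.439 to 0.631). The whole list of 8 B1 genes summed to 2053 CPM in neonatal cells with Ebi3 against 614 CPM in the others, and to 1280 CPM against 647 CPM in the adult. Other lists moved with it in the neonatal cells with Ebi3, at 336 CPM against 33.1 CPM for macrophage, 45.7 CPM against 3.34 CPM for dendritic, 72.1 CPM against 14.9 CPM for neutrophil and 291 CPM against 114 CPM for plasma cell genes. In adult cells with Ebi3 the macrophage list stood at 30.6 CPM against 8.89 CPM and the T cell list at 15.3 CPM against 9.48 CPM. The dendritic list (6.54 CPM against 7.22 CPM) and the plasma cell list (94.5 CPM against 201 CPM) went the other way there. Without cells that held 2 or more macrophage, dendritic or neutrophil UMIs the B1 sums were 2037 CPM against 606 CPM in the neonatal and 1313 CPM against 639 CPM in the adult cells. Leaving out the same cells gave Ebi3 ratios for Vpreb3 of 0.354 and 0.535.

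Lta in the adult library was higher in cells with Cr2, at 21.5 CPM against 12.3 CPM (ratio 1.75, 1.46 to 2.11). It stood at 29.2 CPM in cells with Cr2 only, 20.2 CPM with both Cr2 and Fcer2a, 12.1 CPM with Fcer2a only and 12.6 CPM with neither. The Cr2 ratio was smaller, at 1.25 (1.01 to 1.53), where Cr2 was read in 2000 UMIs of each cell and Lta in the UMIs left over. The age ratio of Lta was present in each of these 4 kinds of cells, from 2.98 in cells with Fcer2a only to 4.62 in cells with Cr2 only.

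Tnf was lower in neonatal cells with Vpreb3, at 2.03 CPM against 6.90 CPM (ratio 0.294, 0.166 to 0.512), and at 2.77 CPM against 3.71 CPM in the adult (ratio 0.747, 0.503 to 1.12). The neonatal ratio was 0.316 without cells that held 2 or more macrophage, dendritic or neutrophil UMIs. It rested on few cells, since the 3 neonatal droplets with most Tnf, none with a Vpreb3 UMI, held 9, 4 and 4 of 35 UMIs. The first 2 of these droplets held 0 macrophage, dendritic or neutrophil UMIs and so stayed in. At 2000 UMIs per cell, 5 neonatal cells with Vpreb3 (0.337%) and 3 without (0.506%) held Tnf. In adult cells with Bhlhe41 Tnf stood at 4.79 CPM against 2.50 CPM (ratio 1.92, 1.28 to 2.86), but with Bhlhe41 read in 2000 UMIs of each cell and Tnf in the UMIs left over the cells with Bhlhe41 held only 2 Tnf UMIs (ratio 0.465).

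Ltb and Tgfb1 were spread far more evenly. The Ltb ratios for the 4 transcripts lay between 0.893 and 1.05 in both libraries, and those of Tgfb1 between 0.843 and 1.29. In the adult cells Tgfb1 was higher with Vpreb3, at 219 CPM against 169 CPM, and with Fcer2a, at 211 CPM against 164 CPM, and lower with Bhlhe41, at 176 CPM against 209 CPM. Vegfb was higher with Bhlhe41, with ratios of 1.66 (1.23 to 2.24) in the neonatal and 1.34 (1.04 to 1.71) in the adult cells. These ratios are not given here with Bhlhe41 read in 2000 UMIs and Vegfb in the UMIs left over. For Vegfa the Bhlhe41 ratios were 1.53 and 0.637, and both intervals included 1.

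**Figure D4:**
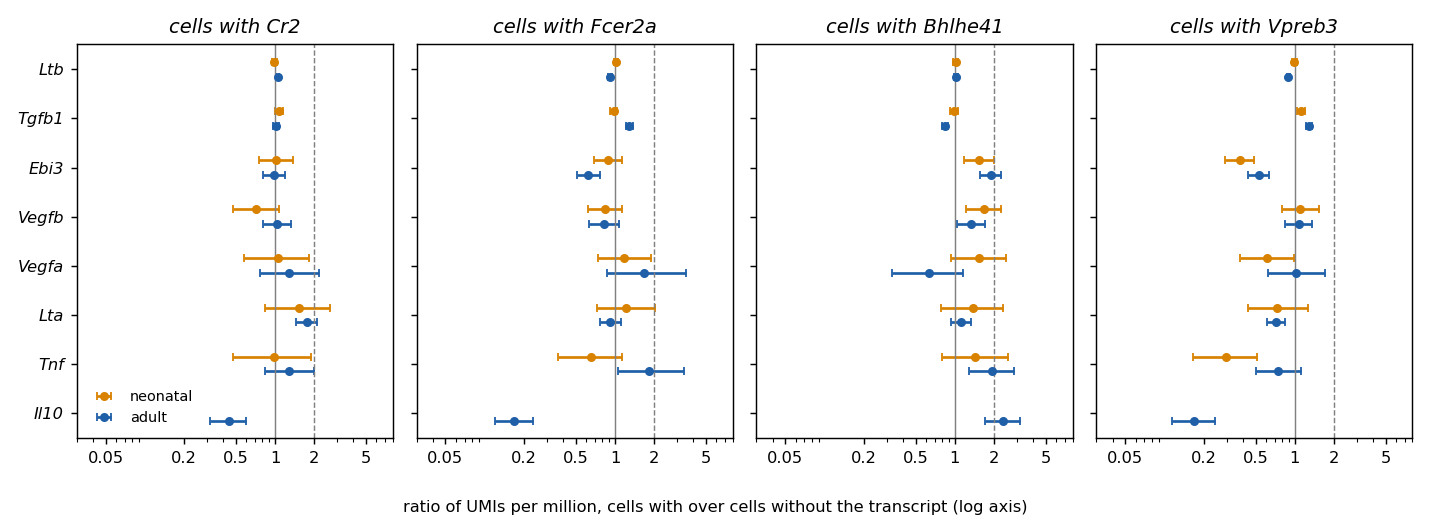
Ratio of CPM in cells with over cells without a UMI of Cr2, Fcer2a, Bhlhe41 or Vpreb3 (log axis), for each gene with at least 50 UMIs in that library. Bars are 95% counting intervals, the solid line marks no difference and the dashed line 2-fold. Ltb and Tgfb1 sit close to the solid line in all 4 panels, while adult Il10 lies at 0.169 for Fcer2a and for Vpreb3.

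**Figure D5:**
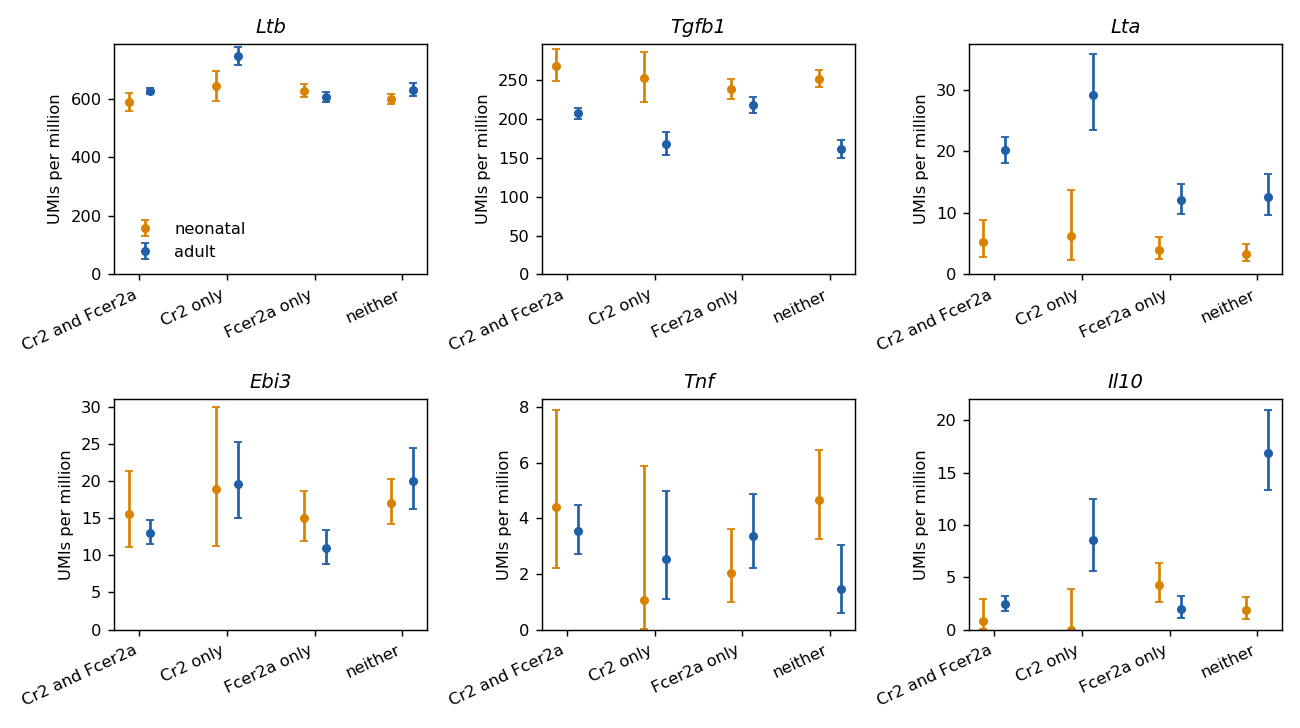
CPM of 6 genes in cells split by whether they held a Cr2 and a Fcer2a UMI, in the neonatal and adult library, with 95% counting intervals. Adult Lta is highest in cells with Cr2 only, at 29.2 CPM, and adult Il10 in cells with neither transcript, at 16.8 CPM. With the adult droplet with most Il10 UMIs left out, that level is 7.41 CPM, within the interval of cells with Cr2 only (8.57 CPM, 5.65 to 12.5).

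Some pairs of genes were found together in cells. In adult cells with Lta, Tnf stood at 4.87 CPM against 2.56 CPM in cells without (ratio 1.91, 1.26 to 2.85), and Il10 at 8.08 CPM against 3.82 CPM (ratio 2.12, 1.53 to 2.91). Ltb was a little higher in cells with Lta in both libraries, with ratios of 1.15 and 1.12. Tnf was higher in cells with Ebi3, with ratios of 5.32 (3.07 to 9.27) in the neonatal and 2.07 (1.36 to 3.12) in the adult cells. Leaving out cells with 2 or more macrophage, dendritic or neutrophil UMIs gave 3.70 and 2.04. Tgfb1 was lower in cells with Il10, with ratios of 0.681 (0.546 to 0.840) and 0.862 (0.768 to 0.965). Cells with a UMI of a sparse gene are deeper than others, and at 2000 UMIs no neonatal and 1 adult cell held both Ebi3 and Tnf.

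Over 8 groups of cells, made of the 2 libraries split by Cr2 and Fcer2a, the genes whose log2 levels ran most like those of Ebi3 were Pdia4, Eci1 and Plac8 (Pearson's r of 0.9498, 0.873 and 0.867). For Vegfb they were Pdlim1, Ssr2 and Ndufb6 (0.947, 0.932 and 0.929) and for Ltb Rbbp7, Eif3m and Rpl10a (0.904, 0.887 and 0.882). For Tgfb1 they were Rnf138, Ogdh and Spag9 (0.994, 0.991 and 0.990), but 612 of 4012 genes had an r over 0.9 with it. Groups of a library share its depth and its free RNA, so these values are descriptions.

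Beside the 10 genes, 108 other cytokine and growth factor genes were looked up. Of these, 38 had no UMI in either library, 43 had under 50 and 27 were deep enough to compare. The most abundant in both libraries was Mif, at 201 CPM and 197 CPM, on the level of Tgfb1. Il16, a chemoattractant for CD4+ cells, followed at 70.7 CPM and 60.5 CPM. Il1b, an inflammatory cytokine of myeloid cells, came next at 51.8 CPM in the neonatal library, but at 11.96 CPM in the adult library it stood below Clcf1, Ccl4, Il12a, Flt3l and Cxcl10. Clcf1, Ccl4, Flt3l, Ccl25 and Ccl5 lay between 6.56 CPM and 26.9 CPM in both libraries. Of the 27, 4 were at least 2-fold higher in the adult library, against 3.25% of all genes measured as deeply. Cxcl10, an interferon-induced chemokine, had 0 neonatal and 446 adult UMIs and was at least 70.4-fold higher, and Ccl2 had 0 and 71 UMIs and was at least 11.2-fold higher, against a limit of 3 UMIs over the neonatal library. These are sums over cells, and the number of cells that held the UMIs is not given here. Tnfsf8 and Tnfsf10, members of the TNF family, had log2 ratios of 2.81 and 2.31. At least 2-fold lower were 6, Il1b, Il2, Ccl3, Ccl6, Ccl9 and Cxcl2, with log2 ratios from -1.34 to -5.82, against 3.96% of all genes, and the macrophage and neutrophil lists were also lower in the adult library. Of these genes Ccl2, Tnfsf8, Tnfsf10, Il2, Ccl3, Ccl6, Ccl9 and Cxcl2 were named after their values had been seen.

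Transcripts of receptors for several of the signals were present in the same libraries. Of 17 receptor genes 9 had at least 50 UMIs, of which 1 was at least 2-fold higher in the adult library and none lower, against 3.25% and 3.96% of all genes. That gene was Nrp2, a co-receptor for VEGF family ligands, at 2.50 CPM and 9.27 CPM. Tgfbr2, the ligand-binding receptor of TGF-β, stood at 88.2 CPM and 85.5 CPM, whereas Tgfbr1 stood at 33.0 CPM and 18.3 CPM. Il10ra and Il10rb, the chains of the IL-10 receptor, stood at 40.5 CPM and 42.3 CPM in the neonatal and 54.0 CPM and 46.8 CPM in the adult cells. Il6ra stood at 27.2 CPM and 14.7 CPM and its partner Il6st at 36.1 CPM and 38.6 CPM. Il27ra, at 32.4 CPM and 36.1 CPM, and Tnfrsf1b, at 24.6 CPM and 28.4 CPM, were also present. Ccr4, the receptor of CCL22, had no UMI. Ltbr, a listed receptor for the lymphotoxins, had 3 neonatal UMIs and 1 adult UMI, and was named after its value had been seen.

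Of 20 genes that process the signals or pair with them, 11 were deep enough, 1 was at least 2-fold higher in the adult library and none lower, against the same 3.25% and 3.96%. That gene was Rhbdf1, named after its value had been seen, with 7 and 103 UMIs. Nrros, which holds latent TGF-β1 at the surface of immune cells, stood at 69.6 CPM and 37.6 CPM, and Furin, which cleaves the TGF-β1 precursor, at 17.1 CPM and 12.7 CPM. Adam17, the protease that sheds TNF, stood at 31.7 CPM and 30.7 CPM, and its partner Rhbdf2 at 13.8 CPM and 10.3 CPM. Zfp36, which marks cytokine mRNAs such as Tnf for decay, stood at 348 CPM and 201 CPM, while Zfp36l1 stood at 651 CPM and 630 CPM and Zfp36l2 at 202 CPM and 174 CPM. Hif1a, a regulator of Vegfa, stood at 57.2 CPM and 73.3 CPM, and Itgav, a chain of integrins that release TGF-β1, at 21.6 CPM and 25.04 CPM. The integrin chains Itgb8 and Itgb6 on the same list had almost no UMIs, with 0 and 3 for Itgb8 and 0 and 0 for Itgb6. These 2 were named after their values had been seen. Of 14 genes induced by tissue handling none was at least 2-fold higher and 3 were at least 2-fold lower in the adult library, against 3.25% and 3.96% of all genes. These were Atf3, Hspa1a and Hspa1b, and the part of handling in the levels of the cytokines was not tested.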

How the data were processed

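The deposited files held raw UMI counts per gene and droplet for every barcode. The authors made these counts from 3′ droplet libraries with Cell Ranger (3.0.2 in the header of the count matrices) and the mm10 build, per the submitters' processing notes. No count had been filtered or normalized by the authors. Droplets with at least 2000 UMIs were kept: 2507 neonatal and 4120 adult, of which 416 and 505 were left out for over 10% mitochondrial UMIs and 14 and 4 for no Cd79a UMI. Doublets were not called. The members and gene lists were chosen with earlier results of these data known. Counts were summed over cells and given as UMIs per 1000000 UMIs of the cells (CPM), with exact 95% Poisson or binomial (Clopper-Pearson) intervals, which cover counting error only, and ratios with exact conditional intervals. No p-value was computed, since each age was 1 library. To compare shares, each cell was thinned to 2000 UMIs without replacement. Genes needed 50 UMIs to be compared. The text names all 10 genes, the 4 subset transcripts, from each list the genes with at least 50 UMIs (at most 10, those with most UMIs), and the 3 genes most similar to each gene with at least 100 UMIs per library. Gene positions came from GENCODE and promoter sequences from RefSeq. Settings were varied one at a time, among them the UMI minimum, the mitochondrial limit, the scaling and the cells left out. Leaving out cells with 2 or more macrophage, dendritic or neutrophil UMIs or with 10 or more plasma cell UMIs, leaving out the top Il10 cells within each kind of cell and reading free RNA per droplet were chosen after seeing the data. Scripts were tested on simulated data and used Python 3.11.15, numpy 2.4.6, scipy 1.17.1 and pandas 2.3.3.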

Additional observations from a re-analysis of the deposited data

Results flagged for a closer look

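For 2 sparse genes the Ltb ratio lay on opposite sides of 1 in the libraries, with both counting intervals excluding 1, as the Il12a ratio for Ebi3 did above. In cells with and without a Tnf UMI the Ltb ratio was 0.719 for the neonatal and 1.07 for the adult cells. In cells with and without an Ebi3 UMI it was 0.931 and 1.07. Without the cells that held 2 or more macrophage, dendritic or neutrophil UMIs the neonatal ratios were nearer 1, at 0.870 for Tnf and 0.967 for Ebi3. Intervals for these 2 ratios are not given here. Each age is 1 library, and the difference between libraries was not tested.

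The droplets left out for over 10% mitochondrial UMIs, which enter no comparison above, also held the genes. In the 416 neonatal droplets 7 genes had more than 3 UMIs, and in the 505 adult droplets 8 genes did. Their levels were near those of the cells for Ltb, at 517 CPM and 691 CPM, and for Tgfb1, at 213 CPM and 179 CPM. Lta stood at 2.76 CPM and 11.9 CPM in them.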

How the results depend on the processing

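The count of 3 genes past 2-fold between ages stayed between 2 and 3 under the UMI minimum, the mitochondrial limit of 20%, the scaling, thinning and the left-out cells. It was 0 with a mitochondrial limit of 5%, where 60 neonatal and 156 adult cells were left. There the log2 ratio was -0.0503 (-0.84 to 0.79) for Il10 and 0.33 (-0.80 to 1.61) for Lta, and both intervals included no difference. Vegfa, at -2.25 (-4.88 to -0.02), and Ebi3, at -1.01, were past 2-fold in that setting but under 50 UMIs, so neither was counted. Vegfa was not past 2-fold as a mean over cells or in thinned cells, and Il10 was not in cells with a Y-linked and no Xist UMI, nor counted where cells with 2 or more UMIs of any other cell type list were left out, which took it below 50 UMIs. It was counted where the endothelial list was set aside (2.38) and where only macrophage, dendritic or neutrophil UMIs were used (1.11). In cells with Fcer2a only, its log2 ratio of -1.09 reversed to 1.42 without the top cell of each library. The count of genes above near-empty droplets was 0 in both libraries by CPM, and 10 (neonatal) and 9 (adult) by UMIs per droplet. The count of gene and transcript pairs at least 2-fold higher in cells with the transcript was 0 among neonatal and 1 among adult cells. At 1.5-fold these counts were 4 and 6. With the transcript read in 2000 UMIs and the gene in the rest, the neonatal count was 1 (Lta with Bhlhe41), and without cells of 2 or more macrophage, dendritic or neutrophil UMIs the adult count was 2. The cause was not tested. No paired analysis was possible because each age was 1 library.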
